A study of Mus musculus with 12 samples.

Results

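Amino acid transporters of mouse CD8+ T cells were followed through 8 genes chosen by symbol: Slc7a5, Slc3a2, Slc1a5, Slc1a4, Slc7a1, Slc7a6, Slc38a1 and Slc43a1. Each symbol matched a single row of the deposited count table of 13780 genes, and all 8 passed the filter on low counts. The cells came from spleens of C57BL/6J mice aged 8 to 12 weeks and were purified by positive selection on magnetic beads. The 4 naïve libraries were made from cells frozen straight after isolation. The 4 media libraries were made from cells stimulated for 72 h by beads carrying anti-CD3 and anti-CD28, with 10 U/ml of human IL-2, in plain medium, and the 4 lactate libraries from cells stimulated the same way with 40 mM sodium lactate added. Since the activated control was plain medium and not sodium chloride, sodium and osmolarity changed together with lactate, and their parts in any difference cannot be told apart. Activation likewise differed from the naïve state by beads, IL-2 and time in culture all together.

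Lymphocytes leaving quiescence need amino acids for protein and nucleotide synthesis, and they take them up through carriers of the solute carrier families. Slc7a5 (LAT1) exchanges large neutral amino acids such as leucine and works only as a heterodimer with Slc3a2, the heavy chain of CD98, which carries its light chains to the plasma membrane. Slc7a6 (y+LAT2) is another light chain of Slc3a2, Slc7a1 (CAT-1) carries arginine and lysine, Slc1a5 (ASCT2) exchanges small neutral amino acids including glutamine, Slc1a4 (ASCT1) exchanges alanine, serine and cysteine, Slc38a1 (SNAT1) brings in glutamine with sodium, and Slc43a1 (LAT3) lets large neutral amino acids through without exchange.

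The libraries held between 14726904 and 21478137 counted reads, so that even the rarest member in any library, Slc1a4 in naïve cells, rested on 23 to 47 reads. CD8+ T cell markers were abundant in every library (7 of 7 genes, summed 2167 to 4339 CPM, counts scaled to library size). The naïve libraries also held RNA of other blood cells: the 6 B cell markers reported summed to 548 to 1324 CPM there against at most 17.1 in activated cells, the 8 myeloid markers to 563 to 1705 CPM against at most 18.7, and the 4 red cell markers reported to 84.1 to 3369 CPM against at most 1.90. Naïve replicate 4 stood apart from the other naïve libraries, with Cd8a at 388 CPM where they had 849 to 1208. In bulk RNA, fewer cells of a type and less RNA per cell cannot be told apart, and the part of these other cells in the naïve values was not tested.

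Values are given as CPM after TMM scaling, in the order of replicates 1 to 4, and differences as log2 fold changes with their standard error (SE) from the quasi-likelihood test of edgeR, fitted to 13767 genes and adjusted over all of them by Benjamini-Hochberg. The call was set at an adjusted p of 0.01 or less. For 4 libraries against 4 the exact two-sided permutation test has 70 arrangements and cannot go below p = 0.0286. The donor tags were read as 5 donors of activated cells, taking tags that recur in the higher library numbers as separate donors. On that reading 3 donors contributed 1 library to each activated group. The lactate comparison is therefore also given with the donor as a block, in the model of all 12 libraries and in a model of the 8 activated libraries alone. In both donor models the lactate effect rests on the 3 donors with both libraries. Media replicate 2 and lactate replicate 3 were the only libraries of their donors and add nothing to that estimate.

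With sodium lactate, Slc7a5 rose above its level in media, and the other members did not pass the threshold. That was 1 of 8 members higher and 0 lower, while 25.1% of all genes were called, 13.9% higher and 11.1% lower. Among the members that were not called, Slc3a2, Slc1a5, Slc1a4 and Slc7a6 had every lactate library above every media library, and Slc43a1 had every lactate library below every media library. The groups thus did not overlap for 6 of 8 members, against 44.7% of all genes (23.2% higher, 21.5% lower), and the members' median log2 fold change was 0.57 (all genes, -0.0016). The donor model of the activated libraries alone was added after seeing the data. It called 3 members higher (Slc7a5, Slc3a2 and Slc7a6) and 1 lower (Slc43a1), with calls over all genes within 1.5 times of 3451. In the donor model of all 12 libraries no member was called, while 992 of all genes were. At an adjusted p of 0.05 or less the model without donors had 4 members higher and 1 lower, with 5461 of 13767 genes called. DESeq2 called 2 higher and 1 lower at 0.01, with calls over all genes within 1.5 times of 3451. Exact counts over all genes with DESeq2 and with donors in the activated libraries are not given here. Those member counts therefore have no exact share beside them.

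Activation in media raised 3 members over the naïve level, Slc7a5, Slc1a4 and Slc7a1, and 0 were called lower by edgeR, with 57.5% of all genes called (28.5% higher, 29.0% lower). Slc43a1 was called lower at an adjusted p of 0.05 and with DESeq2, with calls over all genes within 1.5 times of 7915 in both. The groups did not overlap for 3 members, Slc7a5, Slc1a5 and Slc1a4, against 61.2% of all genes (30.7% higher, 30.5% lower), and the median log2 fold change was 0.43 (all genes, -0.03). In lactate against naïve cells, 5 members rose (Slc7a5, Slc3a2, Slc1a5, Slc1a4 and Slc7a1) and 1 fell (Slc43a1), with 65.0% of all genes called (33.0% higher, 32.0% lower). Here the groups did not overlap for 7 members, against 67.8% of all genes (35.0% higher, 32.8% lower), and the median was 0.90 (all genes, 0.01). The 3 comparisons share their libraries pairwise and are not independent of each other.

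**Figure D1:**
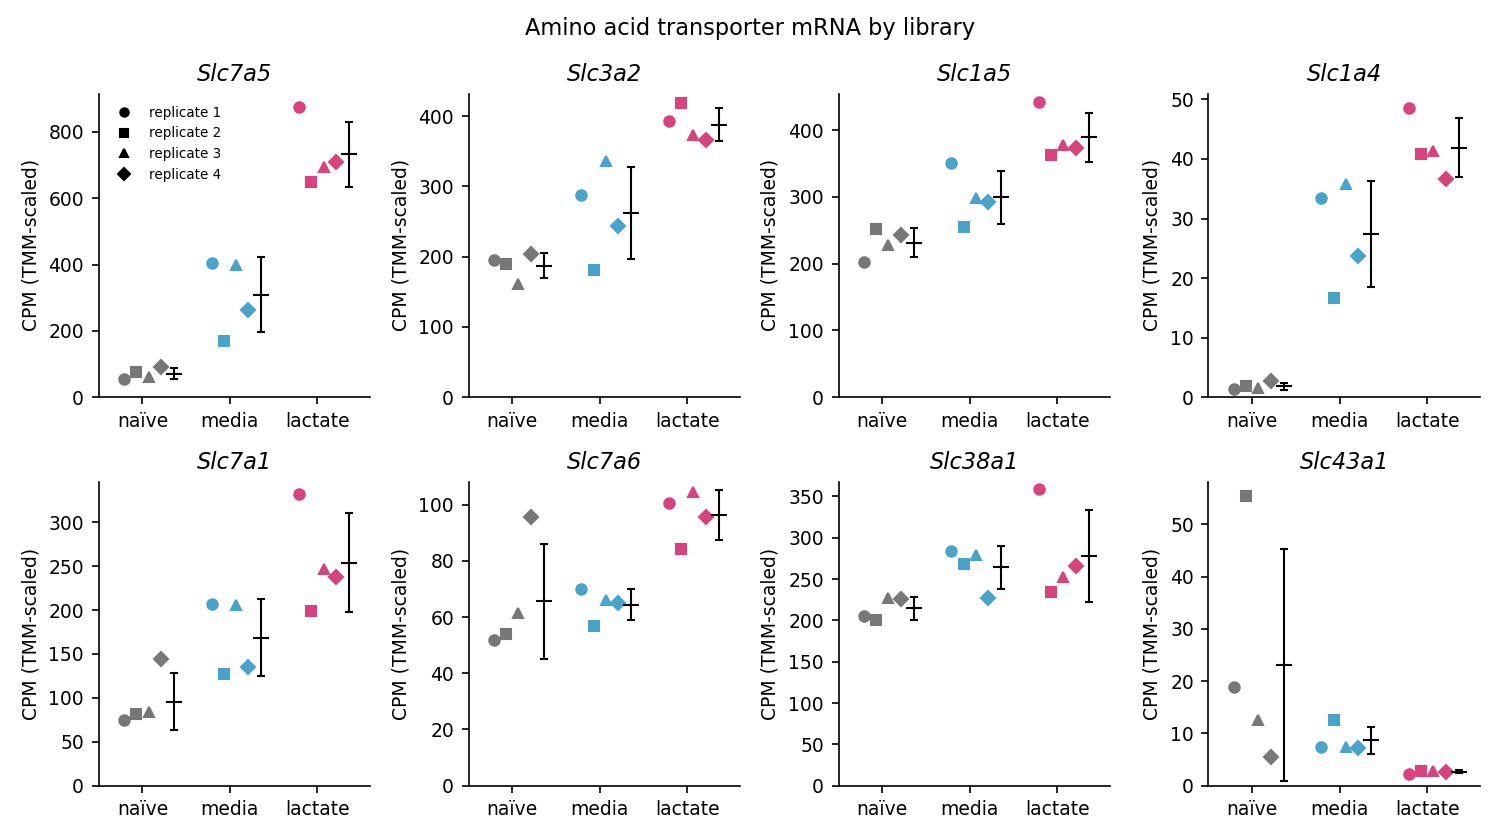
CPM of each transporter gene (vertical axis, linear, from 0) in the naïve, media and lactate libraries, with 1 point per library, the symbol giving the replicate and the black mark the mean ± SD of 4 libraries. Slc7a5, Slc1a5 and Slc1a4 stand in 3 separate steps, with narrow gaps for Slc1a5 and, between media and lactate, for Slc1a4. Slc38a1 overlaps between the activated groups, and Slc43a1 runs in the opposite direction, with naïve replicate 2 at 55.4 CPM far above the other libraries.

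Slc7a5 (chromosome 8, 121881150 to 121907694, minus strand, GRCm38), the catalytic chain of LAT1, was counted over 3708 exon bases. In naïve cells it had 53.5, 75.9, 60.7 and 92.4 CPM, in media 405, 170, 400 and 262 CPM, and with lactate 875, 649, 695 and 710 CPM. The 3 groups did not overlap at any point, and media replicate 2 was the lowest activated library. Activation raised Slc7a5 by 2.13 on the log2 scale (4.38-fold, SE 0.26, adjusted p = 1.30e-05), and lactate raised it further, by 1.24 over media (2.37-fold, SE 0.25, adjusted p = 0.00226, exact permutation p = 0.0286). From naïve to lactate the difference was 3.37 (10.4-fold, SE 0.27, adjusted p = 2.81e-07). With donors as a block the lactate effect was 1.08 in the model of 12 libraries, where it missed the threshold (adjusted p = 0.0148), and 1.09 in that of the activated libraries, where it passed (adjusted p = 9.26e-04). In each of the 3 donors with both libraries Slc7a5 was higher with lactate, by 0.70, 1.11 and 1.44 on the log2 CPM scale.

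Slc3a2 (chromosome 19, 8706882 to 8723369, minus strand), the shared heavy chain, moved over a narrower range. It had 195, 189, 162 and 204 CPM in naïve cells, 288, 181, 337 and 244 CPM in media, and 393, 419, 373 and 367 CPM with lactate. All lactate libraries lay above all media libraries, while media replicate 2 lay inside the naïve range. Lactate against media gave a log2 fold change of 0.56 (SE 0.16, adjusted p = 0.0126), which missed the threshold, and which passed it with donors in the activated libraries (0.46, adjusted p = 0.00556) but not with donors in all 12 (adjusted p = 0.0287). It also passed without naïve replicate 4 (adjusted p = 0.00972) or media replicate 3 (adjusted p = 0.00388). Media against naïve (0.49, adjusted p = 0.0144) missed the threshold with media replicate 2 and passed without it (0.63, adjusted p = 7.03e-04). Lactate against naïve passed, at 1.05 (2.07-fold, SE 0.16, adjusted p = 5.50e-05).

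Because light and heavy chain are needed together, their levels were also compared per length, as TPM (transcripts scaled by gene length). The ratio of Slc7a5 to Slc3a2 TPM was 0.261, 0.383, 0.358 and 0.432 in naïve cells, 1.34, 0.893, 1.13 and 1.02 in media, and 2.12, 1.47, 1.77 and 1.84 with lactate. The ranges of the 3 groups were separate, so the light chain mRNA went from well below the heavy chain mRNA to well above it (mean ± SD 0.358 ± 0.0717, 1.10 ± 0.190 and 1.80 ± 0.265, n = 4 each). These ratios are a description of mRNA and were not tested. The second light chain kept lower levels: the ratio of Slc7a5 to Slc7a6 TPM was 1.35 ± 0.257 in naïve cells, 5.81 ± 1.79 in media and 9.38 ± 1.05 with lactate (SD, n = 4 each).

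Slc7a6 (chromosome 8, 106168857 to 106198706, plus strand), that second light chain, exchanges cationic for neutral amino acids. It had 51.7, 53.9, 61.5 and 95.7 CPM in naïve cells, 70.1, 56.8, 66.1 and 65.0 CPM in media, and 101, 84.4, 105 and 95.8 CPM with lactate. Naïve replicate 4 alone reached the lactate range, and the lactate libraries all exceeded the media libraries. The log2 fold change of lactate against media was 0.58 (SE 0.17, adjusted p = 0.0176), with the donor models at adjusted p = 0.00418 (activated libraries) and 0.182 (all 12), and without naïve replicate 4 at 4.03e-04. Media against naïve was -0.03 (SE 0.17, 95% interval -0.40 to 0.34, adjusted p = 0.898), and leaving out naïve replicate 4 turned it to 0.20 (adjusted p = 0.0906). Lactate against naïve was 0.55 (adjusted p = 0.0109), and 0.78 without that library (adjusted p = 2.11e-05).

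Slc7a1 (chromosome 5, 148327410 to 148399904, minus strand), the carrier of cationic amino acids, had 74.3, 81.4, 83.4 and 144 CPM in naïve cells, 207, 127, 205 and 135 CPM in media, and 332, 199, 246 and 238 CPM with lactate. Neighbouring groups overlapped, since naïve replicate 4 exceeded media replicates 2 and 4, and lactate replicate 2 fell below media replicates 1 and 3. Lactate and naïve libraries did not overlap. Media against naïve passed narrowly (log2 fold change 0.82, SE 0.24, adjusted p = 0.00904, exact permutation p = 0.0857), and it missed the threshold under 14 of 25 alternatives, among them leaving out naïve replicate 1 (adjusted p = 0.0319), 2 (0.0447) or 3 (0.0432), media replicate 1 (0.0307), 3 (0.0303) or 4 (0.0129), or lactate replicate 3 (0.0201) or 4 (0.0197). Lactate against media was 0.59 (SE 0.24, adjusted p = 0.0681) and passed in neither donor model (adjusted p = 0.0384 and 0.257). Lactate against naïve was 1.41 (2.65-fold, SE 0.24, adjusted p = 1.84e-04).

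**Figure D2:**
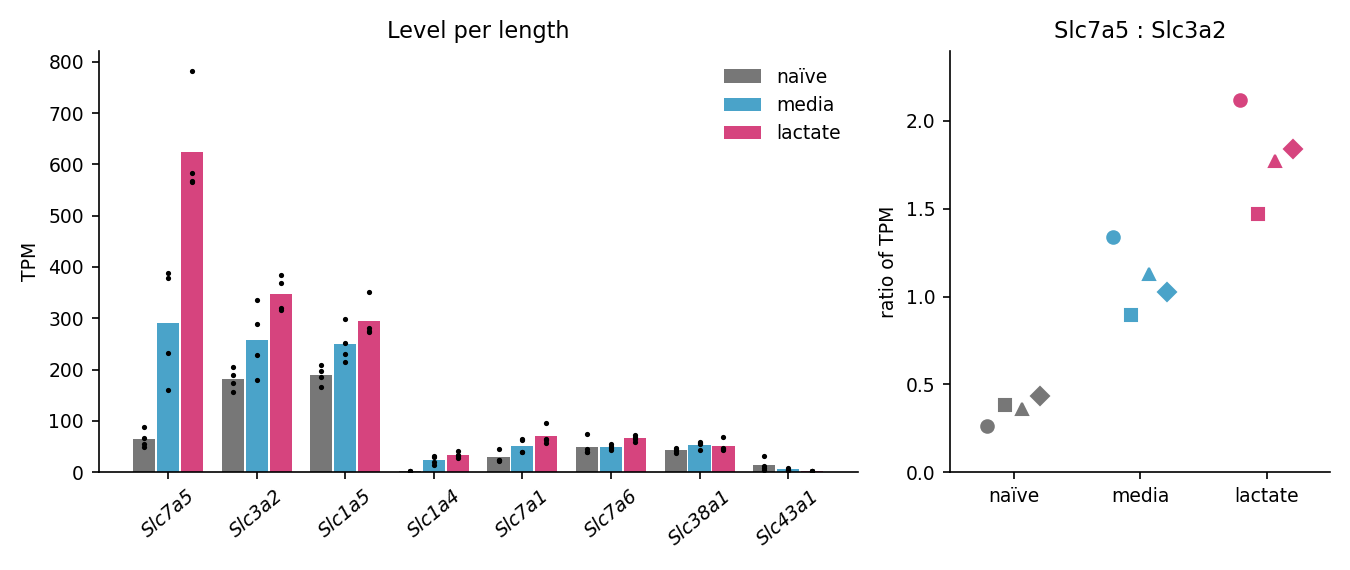
Left, TPM of each gene (bars, mean of 4 libraries; dots, single libraries) in naïve, media and lactate cells; right, the ratio of Slc7a5 to Slc3a2 TPM in each library. Slc7a5 overtakes Slc3a2 and Slc1a5 between naïve and lactate cells, and the ratio climbs from a mean of 0.358 to 1.10 and 1.80 with no overlap between groups.

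Per length, the order of the members changed with activation. In naïve cells Slc1a5 (189 ± 17.9 TPM) and Slc3a2 (181 ± 21.4 TPM) led and overlapped each other, Slc7a5 (65.2 ± 17.4 TPM), Slc7a6, Slc38a1, Slc7a1 and Slc43a1 followed with each overlapping the next, and Slc1a4 was last at 1.58 ± 0.561 TPM. In media Slc7a5 (290 ± 112 TPM), Slc3a2 (258 ± 68.3 TPM) and Slc1a5 (249 ± 36.3 TPM) formed an overlapping group at the top, clear of the rest. With lactate Slc7a5 stood alone at the top (625 ± 105 TPM), above Slc3a2 (348 ± 34.5 TPM) and Slc1a5 (295 ± 38.2 TPM), which overlapped, and Slc43a1 was last at 1.45 ± 0.145 TPM. Among all genes of a library, Slc7a5 moved from the mean percentile 78.9 in naïve cells to 95.7 in media and 98.6 with lactate, and Slc1a4 from 11.5 to 53.6 and 64.7, while Slc43a1 went from 37.8 to 25.7 and 15.2. The 8 genes together summed to 571 ± 73.3 TPM in naïve cells, 980 ± 237 TPM in media and 1490 ± 197 TPM with lactate, and Slc7a5 made up 11.3%, 28.8% and 41.8% of that sum.

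Slc1a5 (chromosome 7, 16781340 to 16798274, plus strand), the glutamine exchanger ASCT2, was high from the start. It had 202, 251, 227 and 243 CPM in naïve cells, 351, 255, 299 and 292 CPM in media, and 443, 362, 378 and 373 CPM with lactate. The groups were ordered without overlap, although by small steps: the lowest media library exceeded the highest naïve library by 255 to 251 CPM, and the lowest lactate library the highest media library by 362 to 351 CPM. Neither step was called, with a log2 fold change of 0.37 for media against naïve (SE 0.11, adjusted p = 0.0102) and 0.38 for lactate against media (SE 0.11, adjusted p = 0.0177, and 0.0149 and 0.0661 in the donor models of 8 and 12 libraries). The first was called without media replicate 2 (adjusted p = 0.00394) or lactate replicate 1 (0.00832), and the second without media replicate 1 (0.00807). The full distance from naïve to lactate passed, at 0.75 (1.68-fold, SE 0.11, adjusted p = 5.61e-05).

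Slc1a4 (chromosome 11, 20302180 to 20332713, minus strand), the related carrier ASCT1, had 1.30, 1.80, 1.51 and 2.63 CPM in naïve cells, 33.4, 16.6, 35.8 and 23.8 CPM in media, and 48.6, 40.9, 41.4 and 36.6 CPM with lactate. It went from near the bottom of the table to moderate levels, and every activated library was above every naïve library. Activation in media gave the largest log2 fold change of the 8 members, 3.92 (15.1-fold, SE 0.28, adjusted p = 1.31e-07). Lactate against media was 0.61 (SE 0.23, adjusted p = 0.0548), with groups apart by 36.6 to 35.8 CPM only, and it was not called in the donor models (adjusted p = 0.0136 for 8 libraries, 0.191 for 12). Lactate against naïve was 4.53 (23.1-fold, SE 0.28, adjusted p = 3.54e-08).

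Promoter windows in the RefSeq table (250 bases before to 50 after the start site) were found for 5 of the 8 genes, in 7 windows: Slc3a2, Slc1a4, Slc7a1, Slc7a6 and Slc43a1. They were searched on both strands for the letters TGATGNAA, the core of the element bound by C/EBP and ATF factors and for the E-box CACGTG, and no window held both. The first was in 1 window, of Slc1a4, and in 3.97% of all 32851 windows of that length. The second was in 1 window, of Slc43a1, and in 7.15% of all windows. These were the only matches found, and both are printed, each in the gene's own direction with the match in capitals. Slc7a5, the only member called with lactate, had no window to search. The Slc1a4 stretch is chr11:20332704-20332773 (GRCm38.p6, minus strand), from 60 bases before to 10 after the start, and the core lies there on the opposite strand of the gene. The Slc43a1 stretch is chr2:84840228-84840297 (GRCm38.p6, plus strand), with its E-box starting 64 bases before the start. The start meant is that of the RefSeq window. For Slc43a1 and Slc3a2 that start lies inside the gene positions given in the text, not at their outer end.
Slc1a4: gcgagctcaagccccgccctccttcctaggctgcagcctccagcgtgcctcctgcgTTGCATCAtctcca
Slc43a1: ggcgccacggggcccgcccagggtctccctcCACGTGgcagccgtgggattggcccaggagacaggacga
A match describes letters, not binding, and its absence from the other windows says nothing about the factors.

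Slc38a1 (chromosome 15, 96571418 to 96642913, minus strand), the sodium-coupled glutamine carrier, had 205, 200, 227 and 226 CPM in naïve cells, 284, 269, 279 and 227 CPM in media, and 359, 234, 252 and 266 CPM with lactate. Lactate replicate 1 was high, and the other lactate libraries lay within the media range. Lactate against media was 0.07 (SE 0.13, 95% interval -0.21 to 0.35, adjusted p = 0.701), an interval that leaves room for modest changes either way, and it turned to -0.08 without lactate replicate 1. Media against naïve was 0.30 (adjusted p = 0.0554) and lactate against naïve 0.37 (adjusted p = 0.0199), the latter called only without lactate replicate 2 (adjusted p = 0.00898) among the libraries left out.

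Slc43a1 (chromosome 2, 84838850 to 84863594, plus strand), the facilitative carrier LAT3, was the member that went down. It had 18.9, 55.4, 12.5 and 5.55 CPM in naïve cells, 7.45, 12.5, 7.41 and 7.27 CPM in media, and 2.25, 2.88, 2.83 and 2.55 CPM with lactate, from 40 to 55 reads per lactate library. The lactate libraries were below all others, and naïve and media libraries overlapped. Lactate against media was -1.72 (3.30-fold lower, SE 0.55, adjusted p = 0.0255, exact permutation p = 0.0286), which missed the threshold. It passed with donors in the activated libraries (-1.52, adjusted p = 7.50e-04, and 0.194 with all 12), without naïve replicate 2 (adjusted p = 0.00200) and without naïve replicate 4 (0.00490), and the 3 donors with both libraries differed by -1.33 to -1.68. Lactate against naïve fell by 3.13 on the log2 scale (8.76-fold lower, SE 0.57, adjusted p = 2.66e-04).

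The naïve level of Slc43a1 ran in the order of the red cell markers. The 4 markers (Hbb-bt, Hba-a1, Hba-a2 and Alas2) summed to 933, 3369, 378 and 84.1 CPM in naïve replicates 1 to 4, the same order as Slc43a1 from highest to lowest. That order was not particular to red cells. Among the 6 B cell markers reported, Ms4a1, Cd22 and Cr2 also had it, and Cd79a, Cd79b and Pax5 did not. In media they summed to at most 0.231 CPM and with lactate to at most 1.90 CPM, and all 4 stood at 0 in media replicate 2, the media library with the most Slc43a1. Media against naïve was -1.41 (SE 0.52, adjusted p = 0.0292) with all libraries and -0.59 without naïve replicate 2 (lactate against naïve -2.32), and it was called lower without naïve replicate 4, the naïve library lowest in red cell markers (-1.74, adjusted p = 0.00221). The part of red cell RNA in the naïve level was not tested.

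**Figure D3:**
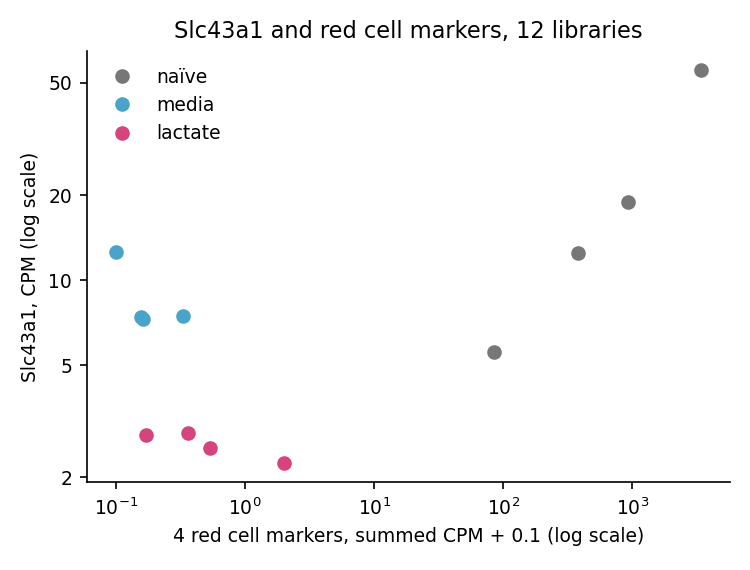
Slc43a1 CPM (vertical, log scale) against the summed CPM of 4 red cell markers plus 0.1 (horizontal, log scale) in 12 libraries. The 4 naïve libraries climb together from 5.55 to 55.4 CPM of Slc43a1, while media and lactate libraries are separate from each other in Slc43a1 with almost no red cell marker RNA.

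**Figure D4:**
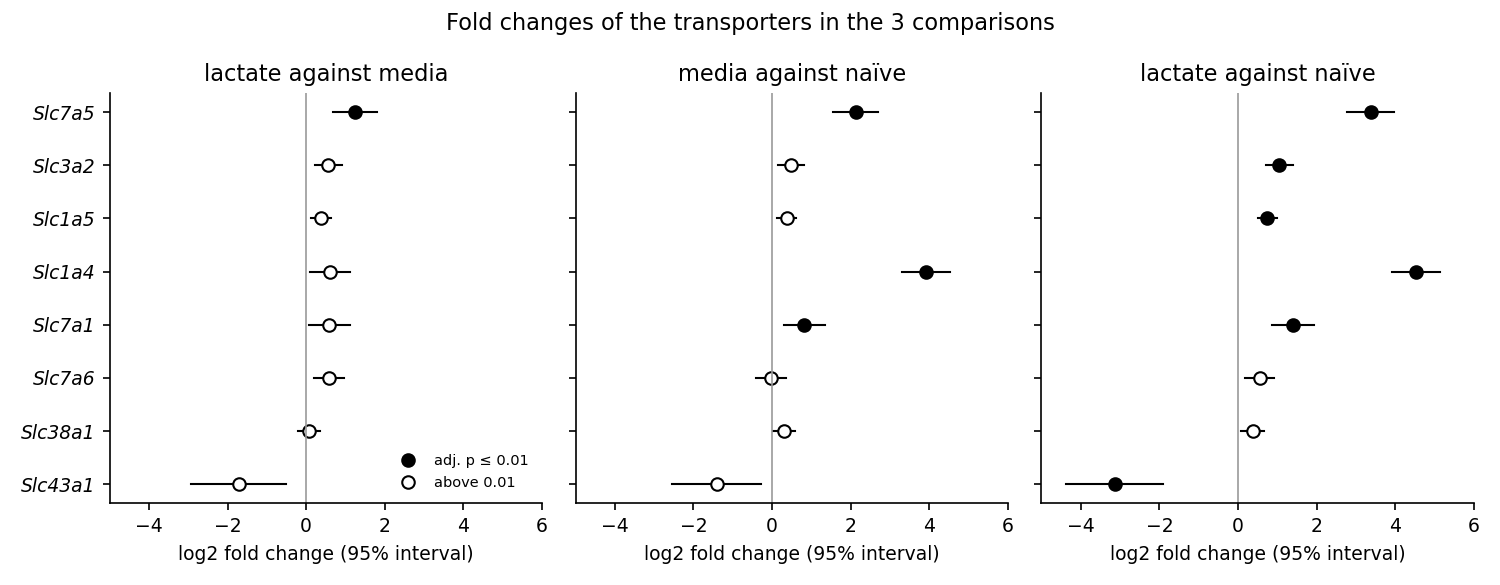
log2 fold change of each gene (point) with its 95% interval (line) from edgeR in the 3 comparisons, filled where the adjusted p was at most 0.01. For lactate against media only Slc7a5 is filled, at 1.24, and Slc43a1 is the member below 0; the widest interval in each panel belongs to Slc43a1.

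Within the activated groups several members also varied together from library to library. In media, replicates 1 and 3 were high and replicates 2 and 4 low for Slc7a5, Slc3a2, Slc1a4 and Slc7a1, and media replicates 1 and 3 were each above the group mean for 7 of 8 members. Over the 8 activated libraries, taken as deviations from the group mean of log2 CPM, Slc7a5 correlated with Slc1a4 at r = 0.97, with Slc3a2 at 0.89, with Slc7a1 at 0.88 and with Slc38a1 at 0.43, while Slc7a5 and Slc43a1 had r = -0.86. Among pairs without Slc7a5 or Slc43a1, r went from 0.94 for Slc3a2 and Slc1a4 to 0.12 for Slc3a2 and Slc38a1. These points share their libraries and scaling and are a description. Media replicate 2, the low library for Slc7a5, was also the one high in Slc43a1. The spread within a group was wider in media than with lactate for Slc7a5 (coefficient of variation 36.9% against 13.5%), Slc3a2 (25.2% against 6.16%) and Slc1a4 (32.3% against 11.9%), and narrower in media for Slc38a1 (9.83% against 20.1%). Library numbers fall into a low and a high run. Lactate minus media for Slc7a5 was 1.32 in the low run (3 media and 2 lactate libraries) and 1.42 in the high run (1 media and 2 lactate libraries), for Slc3a2 0.64 and 0.60, and for Slc43a1 -1.75 and -1.40.

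The genes whose log2 CPM followed each member most closely over the 12 libraries, among 7723 genes averaging at least 20 CPM, were named by Pearson's r, which here mainly follows the differences between the 3 groups. For Slc7a5 they were Nars (r = 0.996) and Gtf2h4 (0.995), for Slc3a2 Cndp2 (0.972) and Xbp1 (0.968), and for Slc1a5 Afg3l1 (0.981) and Prep (0.976). For Slc1a4 they were Eif4ebp1 (0.996) and Yars (0.995), for Slc7a1 Xpot (0.973) and Smarcc1 (0.972), and for Slc7a6 Elp5 (0.978) and Polr2e (0.976). Slc38a1 had weaker partners, Gnl3l (0.951) and Serpinb9 (0.933). The partners of Slc43a1 were Sptb (0.955), the spectrin of red cell membranes, and Cat (0.947).

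A list of 35 further genes, from solute carrier families that include amino acid transporters, gives the surroundings of the 8. Of the 35, 24 were in the table and tested. With lactate, 1 was higher and 2 were lower, 12.5% called against 25.1% of all genes (median log2 fold change 0.21). Slc43a2 (LAT4), the close relative of Slc43a1, fell from 78.0 ± 16.6 to 31.3 ± 6.33 CPM (log2 fold change -1.32, adjusted p = 2.51e-04), Slc38a9, the lysosomal arginine sensor, from 39.0 ± 8.83 to 16.0 ± 3.94 CPM (-1.28, 3.56e-04), and Slc6a6, the taurine carrier, rose from 167 ± 14.4 to 294 ± 52.1 CPM (0.81, 9.53e-04). Both falls passed in both donor models, and the rise in that of the activated libraries. Activation in media went with lower levels for 13 of the 24 and higher for 2 (median -0.77), 62.5% called against 57.5% of all genes, of which 29.0% were lower and 28.5% higher. Slc1a3, Slc3a1, Slc7a2 and Slc7a8 were below 1 CPM in every activated library and passed the filter only through naïve ones. Their fall was thus fixed in advance, and the count of lower genes is no measure of the list. The smallest adjusted p were those of Slc7a7, which pairs with Slc3a2 (19.8 ± 10.9 to 0.617 ± 0.149 CPM, adjusted p = 5.33e-07), Slc7a8, also a light chain of Slc3a2 (29.1 ± 19.9 to 0.0978 ± 0.120 CPM, at most 5 reads in a media library, 9.88e-07) and Slc15a3, a peptide and histidine carrier (39.2 ± 19.5 to 1.24 ± 0.514 CPM, 1.18e-06). The naïve libraries with these genes are also those with 563 to 1705 CPM of myeloid markers, whose part in these falls was not tested.

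**Figure D5:**
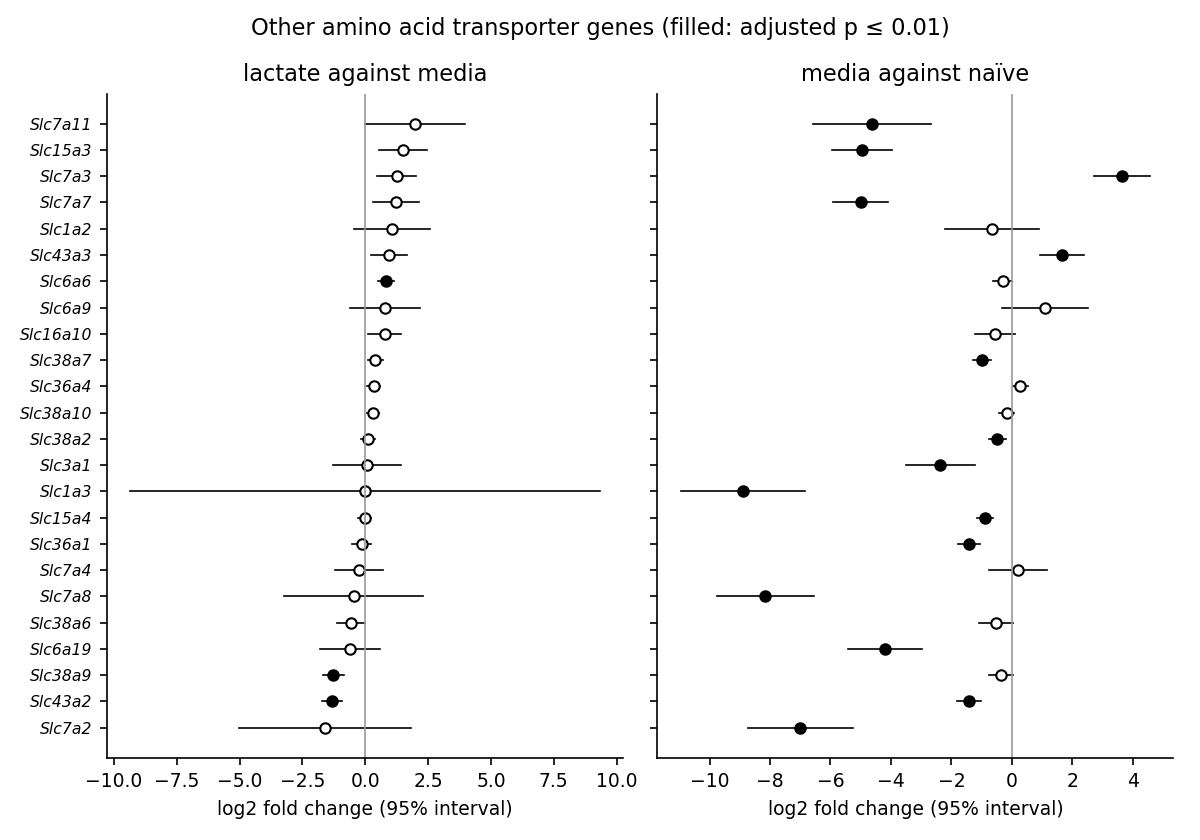
log2 fold change with its 95% interval (edgeR) of the 24 further genes from families that include amino acid transporters, for lactate against media (left) and media against naïve (right), ordered by the left panel and filled where the adjusted p was at most 0.01. With lactate 3 genes are filled, and in media against naïve 15 are, 13 of them below 0. Slc1a3, Slc3a1, Slc7a2 and Slc7a8 passed the filter only through naïve libraries.

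Genes of amino acid sensing by mTORC1, which reads the amino acids these carriers import, had members called higher and members called lower. Of 41 tested, 5 were higher and 3 lower with lactate (median 0.14), 19.5% called against 25.1% of all genes. Sesn2, a leucine sensor, rose from 38.1 ± 10.98 to 84.2 ± 16.5 CPM (1.14, adjusted p = 0.00204), the related Sesn3 fell from 283 ± 49.7 to 122 ± 7.21 CPM (-1.21, 6.35e-05), and the arginine sensor Castor1 rose from 12.2 ± 0.469 to 19.99 ± 3.79 CPM (0.71, 0.00453). Rraga, a Rag GTPase that recruits mTORC1 to lysosomes, rose (1.09, 1.16e-04), as did Sec13 of the GATOR2 complex (0.98, 1.03e-04), and Bmt2, the sensor of S-adenosylmethionine, fell (-1.02, 0.00108). With donors in the model of all 12 libraries, the calls of Sesn2 (adjusted p = 0.0172) and Castor1 (0.0583) were lost and those of Sesn3, Sec13, Rraga and Bmt2 stood, and with donors in the activated libraries all 6 passed. In media against naïve cells 10 were higher and 9 lower (median 0.03), 46.3% called against 57.5% of all genes, led by Eif4ebp1, the translation repressor that mTORC1 phosphorylates (3.38, adjusted p = 5.98e-09), Tbc1d7 of the TSC complex (2.63, 3.49e-08) and Seh1l of GATOR2 (1.32, 1.84e-07).

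Genes of the amino acid response, the ATF4 programme that is switched on when amino acids run short, and to which Slc7a5, Slc3a2, Slc7a1 and Slc1a4 are known to belong, were mostly higher after activation. Of 28 tested, 22 rose and 2 fell in media against naïve cells (median 2.34), 85.7% called against 57.5% of all genes (28.5% higher, 29.0% lower), among them Psat1 of serine synthesis (30.9 ± 4.51 to 366 ± 76.1 CPM, adjusted p = 5.56e-09) and Eif4ebp1. Vldlr, a lipoprotein receptor, had at most 2 reads in any naïve library and 36.9 ± 5.93 CPM in media (adjusted p = 7.45e-09). Vldlr, Cth and Aldh1l2 were below 1 CPM in every naïve library and passed the filter only through activated ones. Their rise was thus fixed in advance. With lactate 8 rose and 2 fell (median 0.59), 35.7% called against 25.1% of all genes (13.9% higher, 11.1% lower). Psph (1.38, adjusted p = 4.84e-04) and Psat1 (0.85, 9.71e-04) of serine synthesis, Mthfd2 of mitochondrial folate metabolism (0.80, 0.00102), Aldh18a1 of proline synthesis (0.78, 0.00214) and Sesn2 were higher, while Vldlr fell to 5.28 ± 1.84 CPM (-2.80, 5.58e-05). With donors in the model of all 12 libraries 1 of the 28 was called, Vldlr (adjusted p = 0.00298), while 992 of all genes were. In the donor model of the activated libraries 14 were called, with calls over all genes within 1.5 times of 3451. The exact count over all genes in that model is not given here, so the 14 have no exact share beside them.

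Enzymes that consume the imported amino acids were called with lactate in 4 of 17 tested, all higher (median 0.47), 23.5% against 25.1% of all genes (13.9% higher, 11.1% lower). Mat2a, which turns methionine into S-adenosylmethionine, rose from 101 ± 22.7 to 243 ± 62.8 CPM (1.26, adjusted p = 2.98e-04), a level close to that of naïve cells (247 ± 19.9 CPM). Gpt2, the mitochondrial alanine transaminase, rose from 35.8 ± 13.3 to 100 ± 7.12 CPM (1.49, 5.08e-04), Bckdk, the kinase that restrains branched-chain ketoacid oxidation, from 46.7 ± 5.39 to 70.9 ± 5.90 CPM (0.60, 9.40e-04), and Got2, the mitochondrial aspartate transaminase, from 141 ± 14.0 to 195 ± 20.7 CPM (0.47, 0.00275). Mat2a, Gpt2 and Bckdk passed with donors in the activated libraries and Got2 did not (adjusted p = 0.0160). With donors in all 12 libraries Mat2a and Gpt2 passed, while Bckdk (adjusted p = 0.0107) and Got2 (0.0365) missed the threshold. In media against naïve cells 10 rose and 3 fell (median 0.53), 76.5% called against 57.5% of all genes, led by asparagine synthetase Asns (3.94 ± 1.64 to 135 ± 42.7 CPM, adjusted p = 3.81e-08), Gpt2 (8.42e-08) and the branched-chain transaminase Bcat1 (1.53 ± 0.943 to 69.0 ± 21.2 CPM, 1.13e-07). Arg2, among those that fell, was below 1 CPM in every activated library and passed the filter only through naïve ones.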

How the data were processed

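RNA-seq was measured in 12 libraries, 4 per group. The deposited values are raw counts, whole numbers per gene. Per the methods and the submitters' processing notes, the authors called bases with bcl2fastq 2.20.0.422, aligned reads with STAR 2.7.5b to mm10/GRCm38, dropped PCR duplicates and used featureCounts to assign unique reads to exons. Whether counting used strand is not given in the sources used here, and no member shares exon bases with another gene. The table also has a deposited length per gene. Its identifiers were matched to GENCODE M21, where 13771 of 13780 were found and 13547 had the same exon length.

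Genes with at least 1 CPM in at least 3 libraries were kept (13 dropped), scaled by TMM and tested with edgeR 4.0.16 (R 4.3.3, limma 3.58.1, DESeq2 1.42.0) in 1 model of 3 groups, called at an adjusted p of at most 0.01. TPM was computed from the counts and lengths. The tests were tried on simulated data before use. The counts of each pair of libraries of a group differed by more than sampling noise. Depth was 14726904 to 21478137 counts per library.

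The members, the lists and the motifs were chosen with earlier results of these data known. The lists share genes, so their counts are not independent. Sesn2 and Eif4ebp1 are in sensing and response, Asns in response and enzymes, and Slc7a11 in further transporters and response. Named were all members, up to 6 genes of each list by smallest adjusted p for lactate against media and up to 3 for media against naïve, and the 2 genes closest to each member by Pearson's r of log2 CPM (prior count 2).

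Conditions, donor tags and library numbers came from the labels. As the donor tags start again in the higher library numbers, each run was given its own donors. Deviations of media and lactate libraries correlated at 0.374, 0.211 and 0.553 for libraries sharing a donor, and at 0.374, 0.297, 0.0038 and 0.553 for those sharing a title number. The donor tags were taken to pair the libraries, and the title numbers do not all follow them. The values 0.374 and 0.553 belong to pairs that share both a donor and a title number. Where the labels differ, the donor pair had 0.211 and the title pairs 0.297 and 0.0038, so the correlations do not settle the pairing.

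Alternatives were another test (edgeR likelihood ratio, DESeq2, limma voom), other scalings and filters, the compared groups alone, blocks by donor and title number, a term for the library run, other thresholds and leaving out each library. The donor block in the activated libraries alone was added after seeing the data. Protein sequences were not analysed here. Of the listed cell type markers, 1 B cell and 1 red cell gene are not reported here.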

Additional observations from a re-analysis of the deposited data

Results flagged for a closer look

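In media, the level of Slc43a1 in replicate 2 (12.5 CPM) stood far from the other media libraries (7.27 to 7.45 CPM). Its gap to the nearest library was 0.957 of the range of the group, above Dixon's 95% limit for 4 samples. Of 24 groups tested, 8 genes in 3 conditions, this was the only such case, and chance gives about 1 in 20. Without that library the log2 fold change of lactate against media was -1.49.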

How the results depend on the processing

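The log2 fold changes of the members kept their direction under every alternative except for Slc7a6 in media against naïve, which turned from -0.03 to 0.014 with limma voom, 0.00011 with the replicate block by title number, 0.0043 with a term for the library run, 0.20 without naïve replicate 4 and 0.030 without media replicate 2 (range without single libraries -0.19 to 0.20), and Slc38a1 in lactate against media, which turned from 0.07 to -0.00074 without media replicate 4 and to -0.076 without lactate replicate 1 (range -0.076 to 0.15). For lactate against media, the members called higher (1) and lower (0) were 3 and 1 with edgeR's likelihood ratio test, 2 and 1 with DESeq2, 2 and 0 with voom, 2 and 1 with the 2 groups alone, 4 and 1 at an adjusted p of 0.05, 0 and 0 with the replicate block by donor in all 12 libraries, and 3 and 1 with that block in the activated libraries alone. Leaving out single libraries gave 1 to 3 higher and 0 to 1 lower, with 3 without naïve replicate 4, and 1 lower without naïve replicate 2 or 4. For media against naïve, 3 higher and 0 lower became 5 higher with the likelihood ratio test, 1 lower with DESeq2, and 5 and 1 at 0.05. With single libraries left out these were 2 to 5 (5 without media replicate 2) and 0 to 1 (1 without naïve replicate 4). Over all genes, 3451 calls for lactate against media became 992 with the donor block in 12 libraries (in the activated libraries it stayed within 1.5 times), 5461 at 0.05, 1247 at 2-fold and 2252 to 4845 without single libraries (lowest without media replicate 2), and 7915 for media against naïve became 4991 at 2-fold. With the likelihood ratio test, DESeq2, voom and the 2 groups alone, calls over all genes stayed within 1.5 times of 3451 and 7915. Calls in the lists for lactate against media were as follows. Further transporters (3) gave 5 with the likelihood ratio test, DESeq2 and voom, 8 with the 2 groups alone and with donors in the activated libraries, 10 at 0.05, and 3 to 6 without single libraries (6 without naïve replicate 4). Sensing genes (8) gave 4 with the donor block and at 2-fold, 13 at 0.05 and 5 to 11 without single libraries (the fewest without media replicate 2 or 4, and without lactate replicate 3 or 4). Response genes (10) gave 6 with at least 10 counts in every library and at 2-fold, 1 with the donor block, 16 at 0.05 and 6 to 15 without single libraries (6 without lactate replicate 3). Enzymes (4) gave 7 with DESeq2, voom and donors in the activated libraries, 8 with the 2 groups alone, 2 with the donor block and at 2-fold, 10 at 0.05 and 3 to 9 without single libraries (9 without naïve replicate 4). For media against naïve, further transporters (15) gave 9 and enzymes (13) gave 8 with at least 10 counts, where fewer genes were tested, and sensing genes (19) gave 7 at 2-fold. The block by title number, which does not fully follow the donor tags, changed no member call for lactate against media. Under it Slc7a1 in media against naïve missed the threshold (edgeR adjusted p = 0.0114) and Slc7a6 in lactate against naïve passed (0.00651). The causes of these shifts were not tested. Slc43a1 rested on 40 to 55 reads per lactate library, and whether depth limits its call was not tested.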
